A study of Mus musculus with 6 samples.

Results

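A set of 10 genes of cholesterol efflux, storage and the liver X receptors (LXRs) were followed in splenic myeloid cells of mice given rapamycin or PBS. They were chosen by name as Nr1h3, Nr1h2, Abca1, Abcg1, Mylip, Apoe, Npc1, Npc2, Lipa and Soat1. Of these 10, 8 had a probe set with exactly 1 gene symbol in the array's annotation, among 19938 such genes in all, and Nr1h2 and Soat1 were not analysed here. Each of the 8 had 1 such probe set, and all 8 lay above the brightness threshold used for testing (log2 4.72).

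Cells were purified with beads against CD11b, an integrin of neutrophils, monocytes and macrophages, and the labels call them myeloid-derived suppressor cells (MDSCs). All 6 mice were lethally irradiated B6D2F1/J recipients of T cell depleted B6 bone marrow, a parent-into-F1 transplantation, and spleens were taken on day 10. Grafts did or did not include spleen cells of B6 mice, and the labels do not tell which mice received them. Rapamycin, an inhibitor of the kinase mTOR, was injected at 1.5 mg/kg on alternate days in 3 mice, and 3 received PBS. Each mouse gave 1 array, whose values are log2 expression per probe set, and 3 arrays per group limit the precision of every value below. The RNA came from a mixed population, so fewer cells of a type and less RNA per cell cannot be told apart.

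LXRs are nuclear receptors that bind oxysterols and, paired with retinoid X receptors, switch on genes that rid a cell of cholesterol. The main products are the exporters ABCA1 and ABCG1, the lipid carrier apolipoprotein E and the ubiquitin ligase encoded by Mylip, which marks the LDL receptor for destruction. Cholesterol esters taken up in lipoproteins are cut in the lysosome by the acid lipase encoded by Lipa, and the free sterol leaves through NPC2 and NPC1. In macrophages this route guards against foam cell formation, and it runs opposite to SREBP2, the factor that drives cholesterol synthesis when sterols are scarce.

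The promoter window of Abca1 is shown because Abca1 had the largest difference among the 8 genes and its promoter is a textbook site of LXR action. The sequence is RefSeq's for GRCm38.p6, minus strand, from 250 bases before to 50 after the gene's start (chr4:53159846-53160145). Capitals mark the stretch closest to the consensus LXR site, a direct repeat of 2 copies of AGGTCA with any 4 letters between them, searched on both strands.
Abca1: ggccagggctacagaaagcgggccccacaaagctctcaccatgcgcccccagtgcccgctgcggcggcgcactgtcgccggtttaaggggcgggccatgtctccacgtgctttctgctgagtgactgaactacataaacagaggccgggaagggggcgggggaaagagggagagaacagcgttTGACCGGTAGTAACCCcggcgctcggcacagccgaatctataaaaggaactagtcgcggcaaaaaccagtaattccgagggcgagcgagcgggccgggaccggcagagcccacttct
The capitals run from 67 to 52 bases before the start, on the opposite strand, and differ from the consensus at 3 of its 12 fixed letters. A stretch as close was present in 21.9% of 32851 RefSeq promoter windows of that length, and an exact match in 0.0152%. Windows were held for 6 of the 8 measured genes (Nr1h3, Abca1, Apoe, Mylip, Npc2 and Lipa), and apart from that of Abca1 their closest stretch differed at 4 or 5 letters. These matches describe letters only.

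The comparison of rapamycin with PBS asked which of these genes differed under mTOR inhibition. None of the 8 passed the test: 0 were called higher and 0 lower with limma at an adjusted p under 0.05, where 11.3% of 13965 genes tested were called (4.42% higher and 6.92% lower). That share corresponds to 0.907 of 8 genes, so a count of 0 lies near the background and says nothing particular about these genes. At an unadjusted p under 0.05 there was 1 gene, Abcg1, against 28.2% of all genes tested. An unmoderated fit also called 0, as it did in every wider list below, so that count says nothing particular about these genes either. The median log2 change was 0.035 for the 8 genes and -0.017 for all genes tested. In 2 of the 8 genes, Abca1 and Abcg1, all rapamycin arrays lay above all PBS arrays; 12.6% of all genes tested showed that order, 19.4% the opposite one, and 32.0% either.

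**Figure D1:**
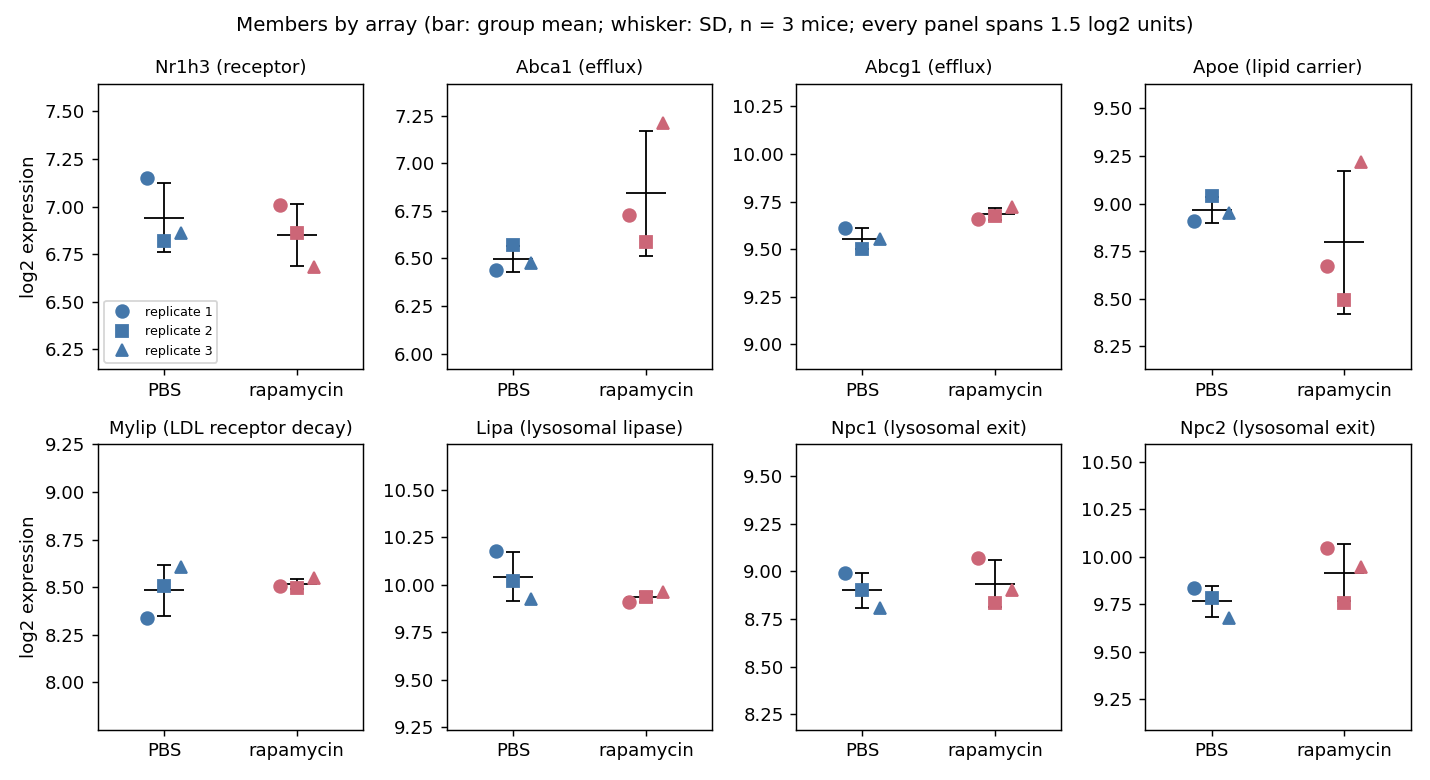
Log2 expression of each measured gene (vertical axis) on each array by treatment, with the group mean as a bar and the SD as a whisker (n = 3 mice per group). The rapamycin points of Abca1 and Apoe spread widely, with replicate 3 at 7.21 and 9.22, and those of Lipa and Mylip lie close together.

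Nr1h3 (probe set 10484987) encodes LXR alpha, the form common in macrophages and liver. Its log2 expression with PBS was 7.15, 6.82 and 6.86 in replicates 1, 2 and 3. With rapamycin it was 6.86 in replicate 2, between 7.01 in replicate 1 and 6.68 in replicate 3, so the groups overlapped. The means were 6.94 ± 0.18 and 6.85 ± 0.16 (SD, n = 3 each). Their log2 difference was -0.09 ± 0.11 (SE; limma adjusted p 0.631). The 95% interval of the change ran from -0.35 to 0.17, or from 0.783- to 1.12-fold. The intervals here and below are limma's and are not adjusted for the number of genes.

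Abca1 (probe set 10512949), the exporter that loads cholesterol onto lipid-poor apolipoproteins, showed the largest difference of the 8. With PBS its log2 expression was 6.44, 6.57 and 6.48 in replicates 1 to 3. With rapamycin it was 6.73, 6.58 and 7.21. Every rapamycin value lay above every PBS value, but replicate 2 did so by little and replicate 3 stood well above the other rapamycin mice. The means were 6.50 ± 0.069 and 6.84 ± 0.33 (SD, n = 3 each). Their log2 difference was 0.35 ± 0.15 (SE), or 1.27-fold, with a limma adjusted p of 0.179. The 95% interval ran from -0.0028 to 0.70, that is, up to 1.62-fold. A larger absolute change was found in 6.32% of all genes tested. Without rapamycin replicate 3 the change was 0.16 (adjusted p 0.193 with limma).

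Abcg1 (probe set 10443730), the exporter that passes cholesterol to mature HDL, gave a smaller and tighter difference. Its PBS values were 9.61, 9.50 and 9.55 on the log2 scale. The rapamycin values were 9.66, 9.68 and 9.72, all above the PBS values though close to the highest of them. The log2 change was 0.13 ± 0.048 (SE), or 1.10-fold, with an unadjusted limma p of 0.0268 and an adjusted p of 0.121. Its 95% interval, 0.020 to 0.24, reached no further than 1.18-fold. A larger absolute change was found in 35.2% of genes tested.

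Apoe (probe set 10560624), the apolipoprotein that macrophages secrete with exported cholesterol, differed mostly between the rapamycin mice. Log2 expression was 8.91, 9.04 and 8.95 with PBS, a narrow range. It was 8.67 and 8.50 in rapamycin replicates 1 and 2, below every PBS mouse, and 9.22 in replicate 3, above every PBS mouse. The SD was therefore 0.38 with rapamycin and 0.067 with PBS (n = 3 each), and the spread itself was not tested. The log2 change over all mice was -0.17 ± 0.17 (SE; limma adjusted p 0.551), with a 95% interval from -0.57 to 0.22. Without rapamycin replicate 3 it was -0.38 and was called (limma adjusted p 0.0346), and without rapamycin replicate 2 it was -0.020 (0.949). The Apoe value thus rested on which rapamycin mice were counted.

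Rapamycin replicate 3 held the highest rapamycin value of Abca1, Abcg1 and Apoe and also of Mylip and Lipa, and the lowest of Nr1h3. Scd2, a fatty acid desaturase and LXR target picked after its values were seen, had the same order as Apoe, with 8.72, 8.59 and 9.24 in rapamycin replicates 1 to 3 and 8.83 to 9.09 with PBS. On that array the summed level of 10 neutrophil markers was the lowest of the 6 (log2 15.9, against 16.0 to 16.1 on the others). Ly6g, a neutrophil surface marker picked after its values were seen, stood there at 11.66, and between 12.05 and 12.36 on the other arrays. Most other markers of that list were also lowest there, but S100a8 and Retnlg were not. The summed level of 9 macrophage markers was 12.85 there, and 12.85 and 12.82 in rapamycin replicates 1 and 2. The part of cell composition in the Abca1 and Apoe values of that mouse was not tested.

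Mylip (probe set 10404874), the ligase that lowers the LDL receptor in response to LXR, was level between the groups. Log2 expression was 8.34, 8.51 and 8.61 with PBS and 8.51, 8.50 and 8.55 with rapamycin. All rapamycin values lay inside the PBS range. The log2 change was 0.033 ± 0.071 (SE; limma adjusted p 0.801), and its 95% interval, from 0.912- to 1.15-fold, leaves room only for small differences in either direction.

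Of the lysosomal genes, Lipa (probe set 10467139), whose product frees cholesterol from its esters, was 10.18, 10.02 and 9.93 on the log2 scale with PBS. It was 9.91, 9.94 and 9.96 with rapamycin, near the lowest PBS value, and the groups overlapped. The log2 change was -0.11 ± 0.068 (SE; limma adjusted p 0.354), with a 95% interval from -0.27 to 0.054. It was -0.037 without PBS replicate 1 and -0.16 without PBS replicate 3. Npc1 (probe set 10457508), the membrane protein through which sterol leaves the lysosome, was 8.99, 8.90 and 8.81 with PBS and 9.07, 8.84 and 8.90 with rapamycin. Its groups overlapped almost wholly, with a log2 change of 0.037 ± 0.076 (SE; limma adjusted p 0.792) and a 95% interval from 0.906- to 1.16-fold.

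Npc2 (probe set 10401519), the soluble carrier that hands cholesterol to NPC1, had log2 values of 9.83, 9.78 and 9.68 with PBS. With rapamycin it reached 10.05 in replicate 1 and 9.94 in replicate 3, above all PBS mice, while replicate 2 at 9.75 lay among them. The log2 change was 0.15 ± 0.082 (SE; limma adjusted p 0.277), with a 95% interval from -0.042 to 0.34. Leaving out rapamycin replicate 1 gave 0.085, and leaving out rapamycin replicate 2 gave 0.23. The 3 lysosomal genes thus gave changes of both signs, none past the threshold.

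**Figure D2:**
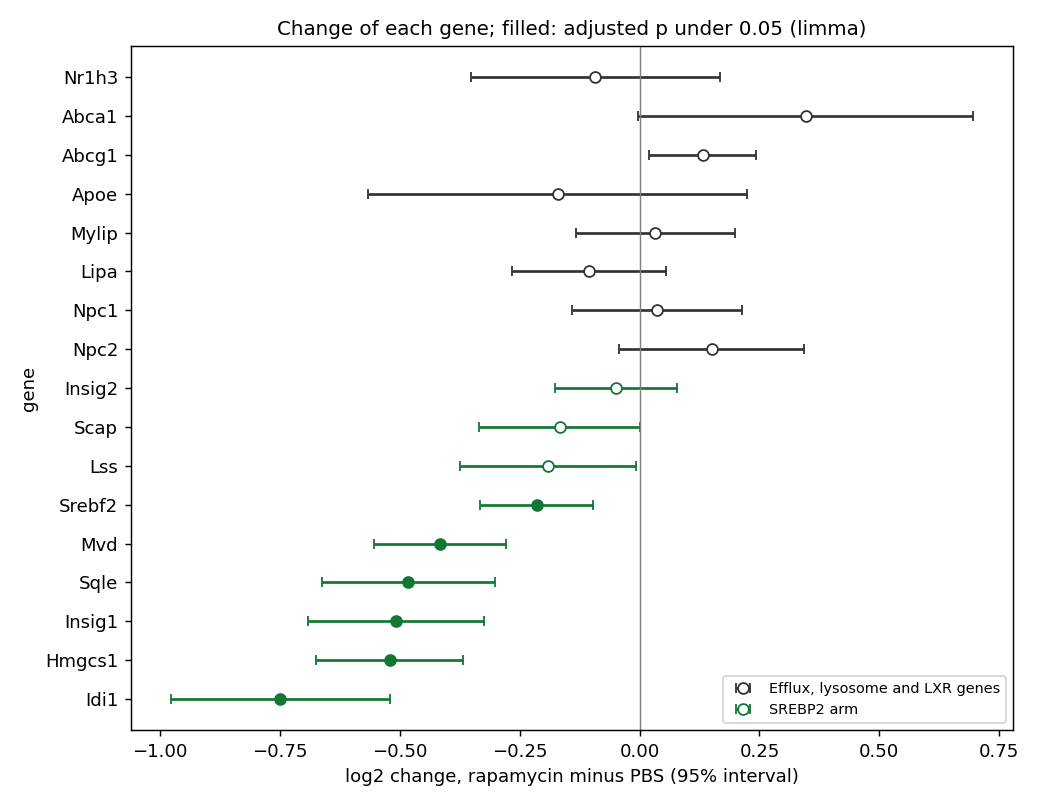
Log2 change (horizontal axis, rapamycin minus PBS) with limma's 95% interval for the 8 measured genes and, below them, 9 genes of the SREBP2 arm; filled points passed the adjusted threshold. The 8 upper points are open and lie between -0.17 and 0.35, and 6 of the 9 lower points are filled and lie below 0.

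The wider pathway was read from 7 lists of related genes, with 90 genes tested beside the 8. Of these, 4 were higher and 8 lower with limma at an adjusted p under 0.05, which is 13.3% against 11.3% of all genes tested. The split was 4 and 14 after quantile normalization again and 3 and 10 with the array medians aligned. The SREBP2 arm held 6 of the 8 lower genes, and outside it 4 of 81 genes were higher and 2 lower (7.41%). The counts were smaller in fits with 1 array left out, which also had fewer samples. Without PBS replicate 2, 0 were called in either direction. In that fit 20 called genes named from these and the marker lists lost their calls. The sizes of change moved less: the SREBP2 arm gene Hmgcs1 was -0.50 there and -0.52 in the main fit. Without PBS replicate 3 there were 0 higher and 3 lower, and likewise without rapamycin replicate 1. Without PBS replicate 1 or rapamycin replicate 2 there were 1 higher and 6 lower. Without rapamycin replicate 3 there were 3 higher and 7 lower. The share of all genes called in each of these alternative fits is not given here, so these counts have no background beside them.

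Among 9 tested partners and co-regulators of LXR, 1 was higher and 8 did not pass the test. That gene was Pias1, a SUMO ligase, with a log2 change of 0.22 ± 0.054 (SE; limma adjusted p 0.0461). The retinoid X receptors Rxra and Rxrb differed by -0.11 and -0.014, neither past the threshold. Of 16 further LXR targets, 1 was higher and 15 did not pass. Lpl, the lipase that frees fatty acids from lipoproteins, had 8.95, 8.85 and 8.95 with PBS and 9.13, 9.10 and 9.14 with rapamycin, a log2 change of 0.21 ± 0.047 (SE; limma adjusted p 0.0371). Its groups did not overlap. Srebf1, the LXR target that drives fatty acid synthesis, differed by -0.14 (adjusted p 0.185 with limma). Its rapamycin values all lay below the PBS values, though narrowly. Of the 16 targets, 3 had all rapamycin arrays above PBS and 2 all below, and 32.0% of all genes tested showed either order. Neither Pias1 nor Lpl kept its call in any of the 6 fits with 1 array left out.

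None of 8 tested genes of oxysterol and desmosterol metabolism passed limma's test, and 1 had an unadjusted p under 0.05. The unmoderated fit called 0 of the 8, as it did in every list, which says nothing particular about them. The 1 was the sterol isomerase Ebp (0.21 ± 0.080, SE; limma adjusted p 0.131). Ch25h, which makes the LXR ligand 25-hydroxycholesterol, differed by 0.095 (adjusted p 0.709 with limma). Of 16 storage genes, 2 were lower and 14 did not pass. Nceh1, a neutral hydrolase of cholesterol esters, changed from 9.02, 9.08 and 9.08 to 8.76, 8.87 and 8.77, without overlap. That is a log2 change of -0.26 ± 0.049 (SE; limma adjusted p 0.0214), called in 3 of the 6 fits with 1 array left out (those without PBS replicate 1, rapamycin replicate 2 and rapamycin replicate 3). The lipid droplet coat protein gene Plin3 changed by -0.24 ± 0.052 (SE; limma adjusted p 0.0309), in none of those 6 fits past the threshold.

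Of 24 genes of sterol transport and the lysosome, 1 was higher and 23 did not pass the test. Scarb2, a lysosomal membrane protein, was 8.70, 8.62 and 8.59 with PBS and 8.89, 8.90 and 9.05 with rapamycin. The groups were apart, with a log2 change of 0.31 ± 0.060 (SE; limma adjusted p 0.0222), called in 2 of the 6 fits with 1 array left out (those without PBS replicate 1 and rapamycin replicate 3). Tfeb, a lysosomal transcription factor held in check by mTOR, differed by 0.023 (adjusted p 0.799 with limma). Of 8 genes of lipoprotein uptake, the scavenger receptor gene Cd36 was higher and 7 did not pass. Cd36 changed by 1.21 ± 0.25 (SE; limma adjusted p 0.0285) and kept its call only in the fit without rapamycin replicate 2. Msr1, Sort1 and Lrp1 of that list differed by -0.31, -0.25 and 0.20 (limma adjusted p 0.0892, 0.0744 and 0.194). The median log2 change of the list was -0.054.

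In the SREBP2 arm, which drives synthesis and uptake of cholesterol, 6 of 9 genes fell and 3 missed the threshold, with none higher, at a median log2 change of -0.42. Hmgcs1, an enzyme of mevalonate synthesis, fell by 0.52 ± 0.065 on the log2 scale (SE; limma adjusted p 0.00770). Mvd, which decarboxylates mevalonate diphosphate, had 7.23, 7.33 and 7.28 with PBS and 6.77, 6.95 and 6.87 with rapamycin, well apart. It fell by 0.42 ± 0.059 (SE; limma adjusted p 0.00933). Idi1, an isoprenoid isomerase, and Insig1, the sterol-regulated brake on SREBP processing, fell by 0.75 ± 0.097 and 0.51 ± 0.078 (SE). Hmgcs1, Idi1 and Mvd lost their calls without PBS replicate 2 (adjusted p 0.0527, 0.0536 and 0.0564 with limma), and Insig1 there and in 2 further fits, without PBS replicate 3 or rapamycin replicate 1. The difference between this arm and the efflux genes was not itself tested. A fall among cholesterol synthesis genes was known when the list was made. The sterol enzyme genes Ebp and Dhcr7, read in the oxysterol list and not here, differed by 0.21 and -0.082, neither past the threshold.

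**Figure D3:**
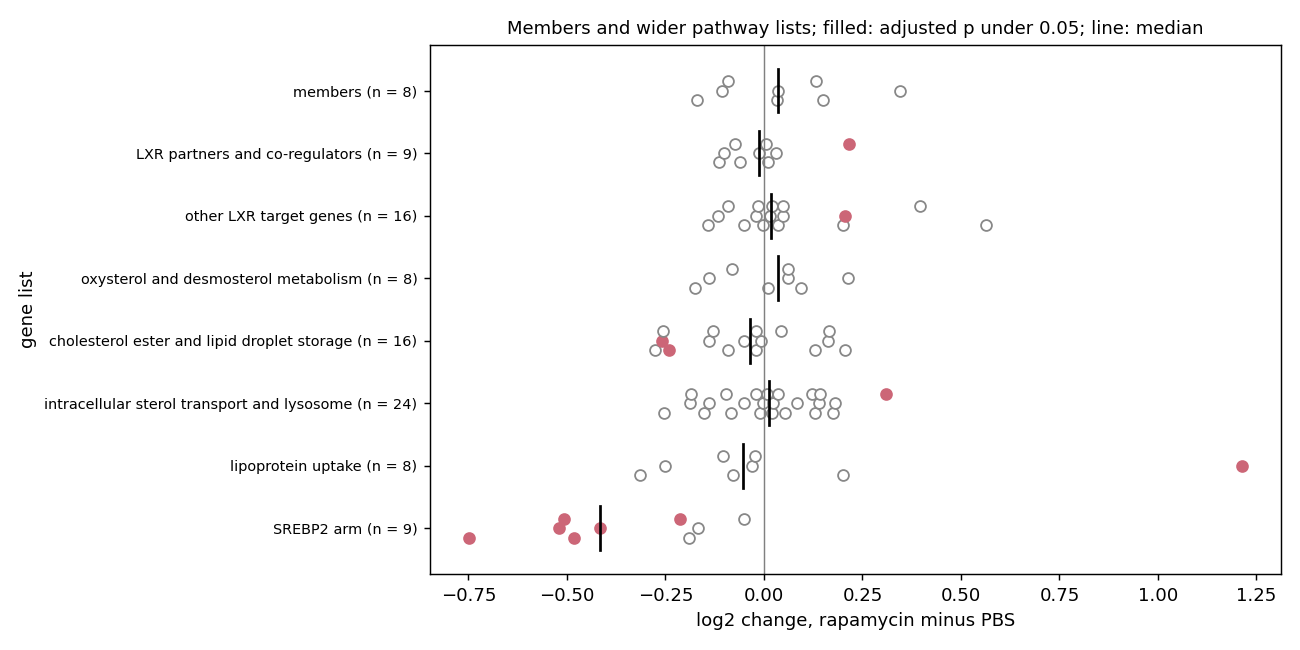
Log2 change of each tested gene (horizontal axis, rapamycin minus PBS) in the 8 measured genes and 7 wider lists, with filled points for adjusted p under 0.05 and a line at each list's median. The medians lie between -0.054 and 0.035 except that of the SREBP2 arm, at -0.42.

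Cell type markers moved as follows beside these genes, as log2 of the summed level of each list, with and without its brightest marker (the latter chosen after seeing the data). The sum of 9 macrophage markers was 12.2 to 12.6 with PBS and 12.8 to 12.9 with rapamycin, and without Cd68, a lysosomal glycoprotein, the groups overlapped (11.7 to 12.1 and 12.1). Cd68 was higher by 0.83 ± 0.091 (SE), the mannose receptor Mrc1 changed by -1.04 ± 0.14, and 7 others did not pass limma's test. The red pulp macrophage sums overlapped, with Hmox1 higher, Slc40a1 lower and 5 not called. Without Hmox1 the sums were lower with rapamycin (10.9 to 11.1 and 10.7 to 10.8). Of the 7 tested markers of that list, 4 including Hmox1 had changes above 0 and 3 below, at a median of 0.040. The monocyte sums overlapped either way, with Ccr2, a chemokine receptor, lower and 8 markers not called. The neutrophil sums also overlapped either way, and limma called 0 of 10 markers, with 0 at an unadjusted p under 0.05. The unmoderated fit called 0 in every list, so its 0 here says nothing particular about these markers.

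In the dendritic cell list Itgax was higher and 6 markers were not called; 5 of the 7 tested had changes below 0, at a median of -0.051. Its sums were 8.88 to 9.13 with PBS and 9.23 to 9.49 with rapamycin, and without Itgax they overlapped (8.21 to 8.25 and 8.19 to 8.26). T cell sums were lower without overlap, also without the brightest marker Cd3e (7.54 to 7.63 and 7.29 to 7.42), with Cd8a and Cd3g called. B cell and NK cell sums were lower without overlap, but overlapped without Cd79b, the called B cell gene, and without the perforin gene Prf1. Limma called none of the 2 NK markers tested, and 1 had an unadjusted p under 0.05. In these 3 lists 1 of 6, 3 of 5 and 4 of 6 markers lay below the brightness threshold. Erythroid sums were higher without overlap, also without Slc4a1, the called gene (6.41 to 6.47 and 6.51 to 6.65). Of 5 eosinophil markers, 3 of them dim, none was called and the sums overlapped. Of the marker calls, Ccr2 and Cd8a were made in 0 of the 6 fits with 1 array left out, Hmox1 and Cd3g in 1, Itgax and Cd79b in 2, Mrc1 in 4, and Cd68, Slc40a1 and Slc4a1 in 5. All of these were lost without PBS replicate 2. The part of these shifts in the values of Abca1, Apoe, Nr1h3 and the other genes was not tested.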

How the data were processed

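Total RNA of 6 mice, 3 per group, was read on 1 Affymetrix array per mouse. The authors' deposited values are log2 expression per probe set, made with RMA in Affymetrix Expression Console per the submitters' processing notes, and their versions and the genome build are not given in the sources used here. Since RMA equalises the arrays' distributions, a shift shared by most genes would not be seen. Array medians ran from 5.42 to 5.46, and no 2 arrays shared more than 6.99% of values. Nothing used here gives array dates, so batches were not tested.

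Of 35556 probe sets, 21789 had 1 symbol in GEO's platform annotation of 2016, 1621 had several, and 12146 were unnamed here. By Entrez ID 21698 matched RefSeq genes of GRCm38.p6, and 0 symbols changed. Each gene was read from its brightest probe set by the mean over 6 arrays (19938 genes). Genes under the 30th percentile of 1-symbol probe sets were set aside, leaving 13965. Rapamycin was compared with PBS by limma 3.58.1 under R 4.3.3 (lmFit, eBayes, 2-sided, Benjamini-Hochberg over all genes tested), checked on simulated data. Figures used matplotlib 3.10.9 in Python 3.11.15.

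Lists (7 pathway, 10 marker; 170 of 192 entries measured) were described by counts and medians. Genes named were the 8 measured members, up to 4 called genes per pathway list (or the one with the largest statistic) and up to 3 called markers per list; others were chosen after their values were seen. Members and lists were chosen with earlier results of these data known. Marker sums are log2 of summed linear values. Alternatives were other brightness filters, repeated quantile normalization, aligned array medians, averaging of each gene's probe sets, an intensity trend with robust estimation, array weights, an unmoderated fit, a replicate block and leaving out each array.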

Additional observations from a re-analysis of the deposited data

How the results depend on the processing

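For the 8 measured genes under 15 alternatives, 115 of 120 values kept their direction and stayed on the same side of the threshold. A total of 4 uncalled values changed sign with 1 array left out: Nr1h3 was 0.012 and Mylip -0.039 without PBS replicate 1, and Npc1 was -0.0084 without PBS replicate 3 and -0.032 without rapamycin replicate 1. With an array left out, Nr1h3 ran from -0.17 to 0.012, Mylip from -0.039 to 0.094, Npc1 from -0.032 to 0.087, Npc2 from 0.085 to 0.23, Lipa from -0.16 to -0.037, Abcg1 from 0.10 to 0.16 and Apoe from -0.38 to -0.020. Apoe was called only without rapamycin replicate 3, which made the count of lower members run from 0 to 1 over these fits, while that of higher members was 0 in all 6. Abca1 ran from 0.16 to 0.48 and its adjusted p from 0.104 to 0.360 with limma. The counts of the wider pathway, 4 higher and 8 lower, ran from 0 to 3 and from 0 to 7 with an array left out, in fits that also had fewer samples. They were 0 and 0 in the unmoderated fit, which called none of the tested genes of any pathway or marker list. After quantile normalization again 14 were lower, and the median log2 change of all genes tested was -0.039 there against -0.017 in the main fit. The share of all genes called in either alternative is not given here, and the cause was not tested. The unmoderated fit called none of the 10 markers named as called, Ccr2 was lost without a brightness filter (limma adjusted p 0.0584), and Cd8a with the replicate block (0.0501). Deviations of same-numbered mice correlated at 0.26, 0.010 and 0.046, of which 0.26 was the highest of all pairs. PBS replicate 3 correlated best with rapamycin replicate 2 (0.14). The labels state no pairing, and with 3 mice per group these values cannot tell whether same-numbered mice were handled together. With the replicate block, 0 members were called, with Abca1 at 0.35 (limma adjusted p 0.138) and Abcg1 at 0.13 (0.173), and 5 wider genes were higher and 8 lower. The array number limits precision: the intervals leave room for changes of up to 1.62-fold in Abca1.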

Other observations

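Some genes beside the efflux route are given here that the counts above do not show, and they were picked after their values were seen. Those in the main test missed its threshold. Groups without overlap were found in 32.0% of all genes tested, so such an order is not particular to them. Mertk, a receptor for dying cells and an LXR target, was 7.65, 7.53 and 7.16 on the log2 scale with PBS and 7.88, 7.70 and 7.95 with rapamycin. The groups did not overlap, but the log2 change of 0.40 ± 0.13 (SE) missed the threshold (limma adjusted p 0.0913). Tgm2, a transglutaminase that also aids the uptake of dying cells, differed by 0.56 ± 0.20 (SE; limma adjusted p 0.109), with overlapping groups. Of the lipid droplet genes, Abhd5, the co-activator of triglyceride lipase, and Dgat2, which makes triglyceride, differed by -0.28 and -0.26. Both did so without overlap (limma adjusted p 0.0694 and 0.0779). Plin2 and Pnpla2 of the same list were higher by 0.16 and 0.13, also without overlap (limma adjusted p 0.133 and 0.105). Of the 16 genes tested in that list, 2 had all rapamycin arrays above PBS and 4 all below. The median log2 change of the list was -0.035. Cidea, a droplet fusion protein, was too dim for the main test and was lower in the fit of all 19938 genes (-0.25 ± 0.048, SE; limma adjusted p 0.0346).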
